A study of Rattus norvegicus with 111 samples.

Results

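The 10 libraries described here are livers of pregnant rats taken as maternal, 4 from dams given 30 mg/kg/d of PFO4DA and 6 from dams given vehicle alone, out of 111 libraries in the series. PFO4DA is a perfluoroalkyl ether carboxylic acid, a fluorinated chain interrupted by ether oxygens that ends in an acid group. All dams were of the Sprague-Dawley strain (Crl:CD(SD)), bought pregnant at 11 to 12 weeks of age. The dosed dams received PFO4DA by mouth on gestational days 18 to 22, and the control dams (0 mg/kg/d) the vehicle over the same days; the labels give 0.5% Tween-80 as vehicle for both groups. Livers were taken 2 to 4 hours after the last dose. Other groups used below are maternal livers at 0.3, 1, 3, 10 and 62.5 mg/kg/d PFO4DA (4 dams each), the fetal livers of the same PFO4DA dams (1 library per dam; whether a library held 1 fetus or several is not given in the sources used here), and maternal livers of separate dams in the PFO5DoA experiment, 4 at 30 and 6 at 0 mg/kg/d. The study set out to compare dose-responsive liver expression between these 2 chemicals and between dam and fetus. Dam numbers go without a gap from 2293 to 2322, and the order of doses starts again at 2308. They were split there into 2 runs, 2293 to 2307 and 2308 to 2322, each with 2 dams at 30 mg/kg/d and 3 controls. The labels name no such runs and do not say whether they were handled apart.

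The columns of the deposited tables name the dam but not the life stage, so the maternal libraries were chosen by their measured values. For each dam, the library with the higher Pearson correlation of log2(CPM + 1) with the only library of dam 2286, labelled maternal, was taken as maternal. Dam 2286 was given 30 mg/kg/d PFO5DoA, and its library is also among the PFO5DoA livers used below. In the 10 dams at 30 and 0 mg/kg/d, this correlation lay between 0.968 and 0.977 for the libraries taken as maternal and between 0.872 and 0.909 for the others, and the smallest gap within a dam was 0.059. A difference in level between the stages is therefore no finding here. The word maternal below means assigned by this rule.

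Expression was read with TempO-Seq, in which pairs of short probes are joined on their target RNA and the joined products are sequenced and counted; the rat panel holds 22253 probes for 20924 genes. The tables list 20311 genes by Ensembl identifier alone. None of the 20311 identifiers could be matched to a symbol (0 matched), so the label of maternal liver could not be checked against hepatocyte or fetal liver markers, lists of genes by function could not be looked up, and no sequence is shown. The identity and position of the 4 genes given below are thus their identifiers only. The total counts per library were 7818957 to 11415496 at 30 mg/kg/d and 8236115 to 9985429 in the controls.

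The liver takes up, binds and clears fatty acids and foreign acids of similar shape. As background from other compounds, perfluoroalkyl acids are known in rodent liver for activating nuclear receptors that sense fatty acids, above all PPARα, which switches on genes of fatty acid oxidation, and CAR, which switches on genes of drug metabolism. In late pregnancy the dam's liver also supplies lipids and glucose to the fetuses. Which of the genes below belong to these pathways cannot be said without their names.

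At 30 mg/kg/d, 65 of 10263 genes tested passed an adjusted p of 0.05 in maternal liver, 0.633% of them. Of these, 63 genes were higher in dosed dams (0.614% of genes tested) and 2 were lower (0.0195%). The test was edgeR's quasi-likelihood test over 30 maternal livers with Benjamini-Hochberg adjustment. Without adjustment, 724 of the 10263 genes tested had a p under 0.05, of which 405 were higher and 319 lower. With no change at all, a share of about 0.05 of the genes tested would pass this limit by chance. The median log2 fold change over all genes tested was -0.001. In bulk liver, more RNA per cell and more cells of a type cannot be told apart.

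**Figure D1:**
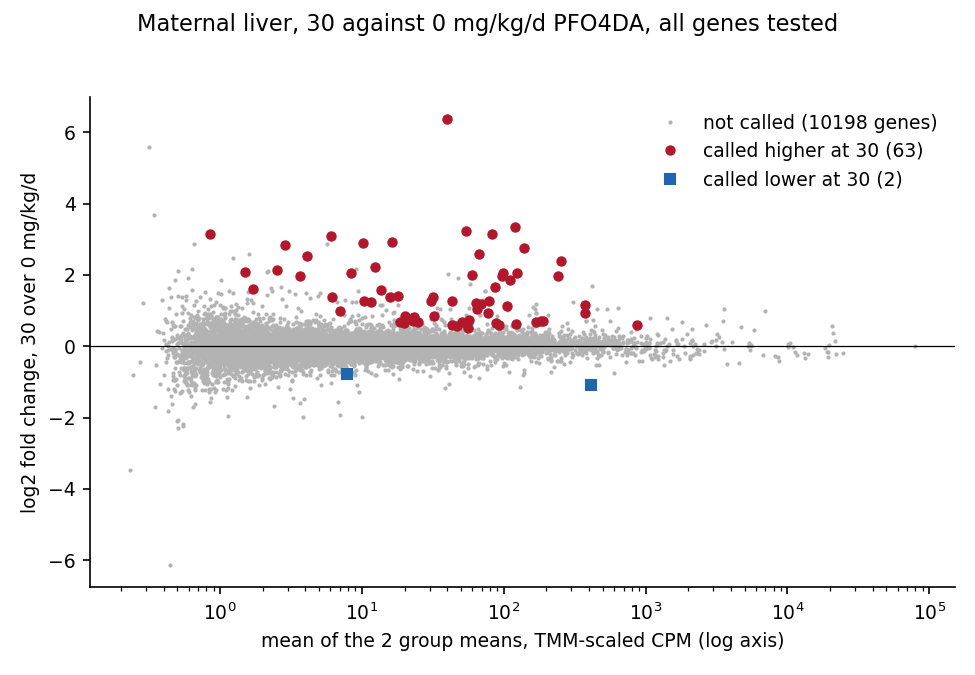
Each point is a gene. The x axis gives the mean of its 2 group means in TMM-scaled CPM (log axis). The y axis gives its log2 fold change for 30 over 0 mg/kg/d in maternal liver. The 63 genes called higher (red circles) reach a log2 fold change of 6.37, while the 2 called lower (blue squares) lie at -1.09 and -0.79. The control means of the 63, which are not the plotted x values, are 0.158 to 698 CPM.

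The rises were mostly moderate in size. Of the 63 genes, 41 rose at least 2-fold (0.399% of genes tested; 0.409% with the fallen gene of that size), 19 at least 4-fold and 6 at least 8-fold, and 22 rose less than 2-fold. The log2 fold changes ran from 0.51 to 6.37, with a median of 1.27 and a second largest of 3.35. A single gene thus stood well above the rest in size. The risen genes were spread over a wide range of levels. Their mean level in dosed dams lay between 1.54 and 1047 CPM with a median of 62.8 CPM, and in control dams between 0.158 and 698 CPM with a median of 21.5 CPM. The median control level of all genes tested was 9.12 CPM, and 157 genes had a control mean above the highest of the risen genes. A control mean of at least 100 CPM was seen for 6 of the 63 genes (9.52%) and for 993 of all 10263 genes tested (9.68%), and 15 of the 63 had a control mean under 5 CPM. CPM of different genes come from different probes, so these figures place genes within the library and not against each other per transcript.

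For 57 of the 63 risen genes every dosed dam was above every control dam, and for both fallen genes every dosed dam was below every control dam. Among all genes tested, 143 (1.39%) had every dosed dam above every control and 70 (0.682%) had every dosed dam below. Since the 65 genes were picked from the same values, these counts describe them and add no support. Of the listed genes, 10048 did not pass the filter on low counts and were not tested. On-and-off patterns over all listed genes were few and faint: 10 genes had 0 counts in all 6 controls and counts in all 4 dosed dams, with a summed count of at most 13, and 4 genes had the reverse pattern, with at most 17. Another 2481 genes had 0 counts in all 10 livers. Just inside the threshold the largest adjusted p was 0.0498, and just outside it the smallest was 0.0516, with 23 genes between 0.05 and 0.1, 18 of them higher and 5 lower.

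The gene with the largest rise, ENSRNOG00000055221, had 132, 79.3, 59.8 and 42.5 CPM in dams 2306, 2307, 2317 and 2318 at 30 mg/kg/d, against 0.579 to 1.73 CPM in the 6 controls, whose median was 0.797 CPM. All 4 dosed livers were far above every control, with dam 2306 the highest and dam 2318 the lowest. In deposited counts this was 378 to 1095 per dosed library and 5 to 17 per control library, so the size of the fold rests on few counts in the controls. The group means were 78.5 ± 39.0 CPM (SD, n = 4) in dosed dams, against 0.921 ± 0.431 CPM (SD, n = 6) in controls. The log2 fold change was 6.37 (SE 0.54), an 82.7-fold rise, with an adjusted p of 3.22e-08. Within the runs it was 7.36 in dams 2293 to 2307 and 5.37 in dams 2308 to 2322, where the dosed livers were lower and the controls higher.

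The second, ENSRNOG00000001052, was already present in control liver. It had 278, 279, 217 and 104 CPM in dosed dams 2306, 2307, 2317 and 2318, against 15.8 to 26.8 CPM in the controls, with a median of 21.2 CPM. The groups did not overlap, and dam 2318 was the lowest dosed dam for this gene as for the first. Dosed dams averaged 219 ± 82.3 CPM (SD, n = 4) and controls 21.5 ± 4.62 CPM (SD, n = 6), a 10.2-fold rise (log2 3.35, SE 0.29, adjusted p = 2.86e-08).

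ENSRNOG00000013004 had the larger of the falls. Its levels were 179, 242, 351 and 280 CPM in dosed dams 2306, 2307, 2317 and 2318, against 352 to 731 CPM in the controls, with a median of 543 CPM. The highest dosed dam (351 CPM) and the lowest control (352 CPM, dam 2295) nearly touched. The log2 fold change was -1.09 (SE 0.23), from means of 263 ± 72.1 CPM (SD, n = 4) in dosed dams and 559 ± 135 CPM (SD, n = 6) in controls, with an adjusted p of 0.0106. The call was lost without dam 2306 (adjusted p = 0.0877) or dam 2307 (0.0595), and it was lost within each dam run alone (0.0895 and 0.0535), with the direction kept throughout.

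ENSRNOG00000012952 fell by less than 2-fold, from a level near the control median of all genes tested (9.12 CPM). It had 5.93, 5.94, 6.22 and 4.84 CPM in dosed dams 2306, 2307, 2317 and 2318, against 7.76 to 11.4 CPM in the controls, with a median of 10.0 CPM. The dosed livers were tightly grouped, below all 6 controls. The dosed mean was 5.73 ± 0.612 CPM (SD, n = 4) and the control mean 9.90 ± 1.22 CPM (SD, n = 6), and the log2 fold change was -0.79 (SE 0.19, adjusted p = 0.0342). This call held without control dam 2295 (adjusted p = 0.0199) and was lost without any other of the 10 dams, where the adjusted p lay between 0.0559 and 0.126.

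**Figure D2:**
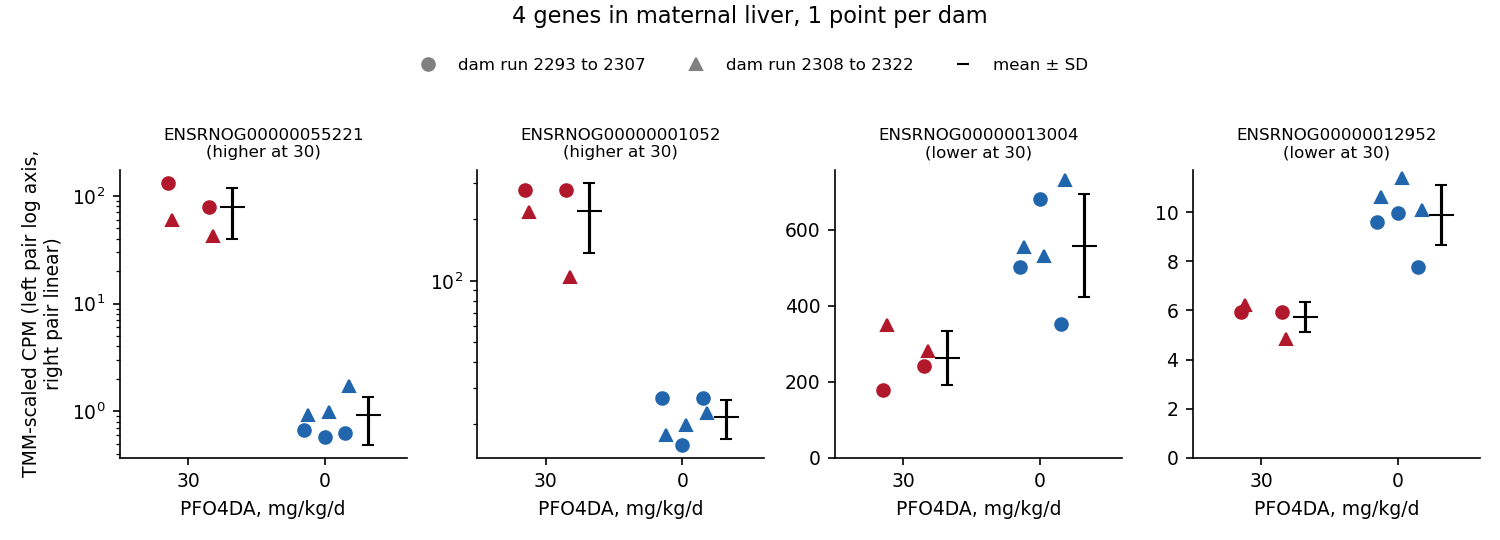
Each point is the level of a gene in the liver of 1 dam in TMM-scaled CPM, at 30 mg/kg/d (red, left) and 0 mg/kg/d (blue, right); circles and triangles are the 2 runs of dam numbers, and the bar gives the mean ± SD of 4 dosed and 6 control dams. The left pair of panels has a log axis and the right pair a linear axis from 0; in each panel the dosed dams lie to one side of all controls, by the narrowest margin for ENSRNOG00000013004 (351 against 352 CPM).

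The values of the 63 genes in each of the 4 dosed dams, on which the genes were chosen, are given as a description. Relative to the control mean, the median over the 63 genes of log2(CPM + 0.5) was 1.18 in dam 2306, 1.25 in dam 2307, 1.24 in dam 2317 and 1.13 in dam 2318, against -0.05 to 0.10 in the controls. No dosed dam held the top or bottom place for most genes: dam 2306 was the highest of the 4 for 24 genes and the lowest for 19, dam 2307 for 9 and 12, dam 2317 for 15 and 14, and dam 2318 for 15 and 18. Together the 63 genes took 0.716 ± 0.094% of all counts in dosed livers (SD, n = 4) and 0.310 ± 0.0367% in controls (SD, n = 6). The 63 genes therefore held a small share of the counts, which is not a share of RNA, since genes are read by different probes.

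Each dam run could be tested by itself, with no dam in common. Dams 2293 to 2307 alone (2 dosed, 3 controls) gave 60 calls, 45 higher and 15 lower, and dams 2308 to 2322 alone gave 62 calls, 52 higher and 10 lower. Of the genes tested in both runs, 20 were called higher in both, which is 46.5% of the 43 called higher in the first run and 38.5% of the 52 in the second; the called share of the 9296 genes tested in both was 0.463% in the first run and 0.559% in the second. No gene was called lower in both, out of 15 (0.161%) and 10 (0.108%). The genes called higher in the first run had a median log2 fold change of 1.07 in the second, with 34 of 43 above 0, against 4532 of 9296 for all genes tested in both. In the other direction, the genes called higher in the second run had a median of 1.09 in the first, with 48 of 52 above 0, against 4570 of 9296. For the genes called lower the medians in the other run were -0.08 (9 of 15 below 0) and -0.20 (6 of 10 below 0). With the run as a covariate, all dams together gave 68 calls.

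Along the doses of PFO4DA, the median change over the 63 genes chosen at 30 mg/kg/d was small at low doses. All doses share the same 6 controls, so the values are given side by side and no doses count as separate evidence of each other. The median log2 fold change over the 63 genes was 0.20 at 0.3 mg/kg/d, 0.07 at 1, 0.18 at 3, 0.63 at 10, 1.27 at 30 and 1.63 at 62.5 mg/kg/d, while over all genes tested the medians lay between -0.002 and 0.024. Above control were 55 of the 63 genes at 0.3, 41 at 1 and 60 at 3 mg/kg/d. Of all genes tested, 50.5%, 50.3% and 51.0% were above control at these doses. The shared controls are those the 63 genes were chosen on, so these counts are a description. At 10 mg/kg/d all 63 were above control, against 53.9% of all genes, but a single one passed the test. The whole table held 0 calls at 0.3, 1 and 3 mg/kg/d with edgeR. There, 269, 221 and 285 genes had an unadjusted p under 0.05. These counts are under a share of 0.05 of the 10263 genes tested. The 0 calls do not show that no gene changed. The whole table held 1 call at 10 mg/kg/d (0.00974%) and 252 calls at 62.5 mg/kg/d (2.46%). Of the 252, 185 were higher (1.80%) and 67 lower (0.653%). Of the 63 genes, 60 were also called higher at 62.5 mg/kg/d; the 2 fallen genes were not called there.

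**Figure D3:**
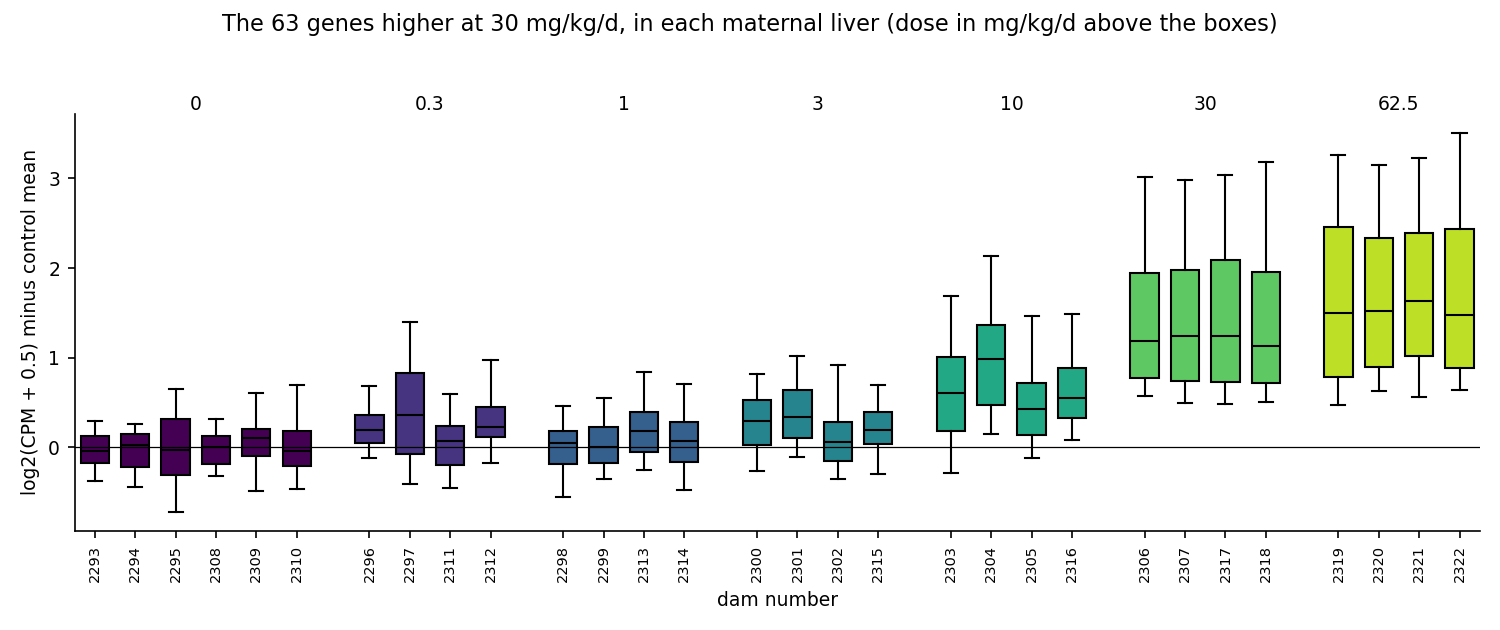
Each box shows, for 1 maternal liver, the 63 genes called higher at 30 mg/kg/d as log2(CPM + 0.5) minus the control mean (y axis; line, median; box, quartiles; whiskers, 5th to 95th percentile), with dams in order of dose. The medians run from -0.05 to 0.10 in the control dams, from 0.42 to 0.98 at 10, from 1.13 to 1.25 at 30 and from 1.48 to 1.63 at 62.5 mg/kg/d.

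Compared directly with the next lower dose, 5 genes differed at 30 from 10 mg/kg/d (0.0487% of genes tested), all higher at 30 and all among the 63. The 63 genes were chosen on the same dams at 30 mg/kg/d, so this overlap and its direction are a description and add no support. ENSRNOG00000055221 had 132, 79.3, 59.8 and 42.5 CPM at 30 mg/kg/d, against 3.03, 18.2, 1.68 and 2.55 CPM at 10 mg/kg/d in dams 2303, 2304, 2305 and 2316, a log2 difference of 3.64 (SE 0.52, adjusted p = 0.00191). Within the 10 mg/kg/d group, dam 2304 was well above the other dams. For ENSRNOG00000001052 the difference was 2.03 (SE 0.32, adjusted p = 0.00254), with means of 219 CPM in the dams at 30 and 53.7 CPM in those at 10 mg/kg/d. The count of 5 became 9 without dam 2304 and 6 with the run as a covariate. An unadjusted p under 0.05 was reached by 767 of the 10263 genes tested, where chance alone gives a share of about 0.05.

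Between 62.5 and 30 mg/kg/d, 4 genes differed (0.0390%), all lower at 62.5 mg/kg/d, and none of the 63 risen or 2 fallen genes was among them. Those 4 genes had a median log2 fold change against controls of -1.26 at the higher dose, against 0.34 at 30 mg/kg/d; all 4 were called lower at 62.5 and none was called at 30. Of the 63 genes, 51 had a higher mean at 62.5 than at 30 mg/kg/d, with a median log2 difference of 0.22. The 30 mg/kg/d side is the one these genes were chosen on. ENSRNOG00000055221 reached 204, 136, 286 and 211 CPM at 62.5 mg/kg/d in dams 2319 to 2322, a log2 difference from 30 mg/kg/d of 1.41 (95% interval 0.51 to 2.31, adjusted p = 0.221). ENSRNOG00000001052 went the other way, with 153, 86.2, 114 and 121 CPM at 62.5 mg/kg/d, a log2 difference of -0.89 (95% interval -1.50 to -0.28, adjusted p = 0.265). Neither difference passed the test over all genes. The count of 4 hung on single dams: it was 145 (27 higher and 118 lower at 62.5 mg/kg/d) without dam 2318, 1 without dam 2306, 2 without dam 2307, 0 without dam 2319 or dam 2321 and 2 without dam 2322. All 62.5 mg/kg/d dams belong to the run 2308 to 2322, as do 2 of the 4 dams at 30 mg/kg/d; that run alone gave 3 calls (1 higher, 2 lower at 62.5 mg/kg/d), and the run as a covariate gave 2, both lower.

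The 2 fallen genes followed other courses. ENSRNOG00000012952 averaged 11.3 ± 1.80 CPM at 0.3, 10.8 ± 3.27 at 1, 10.9 ± 1.34 at 3, 9.09 ± 1.25 at 10, 5.73 ± 0.612 at 30 and 6.59 ± 1.70 CPM at 62.5 mg/kg/d (SD, n = 4 each), and its difference between 62.5 and 30 mg/kg/d was 0.20 on the log2 scale (95% interval -0.19 to 0.60). ENSRNOG00000013004 had its lowest means at 1 and 30 mg/kg/d: the series was 403 ± 135 CPM at 0.3, 261 ± 52.2 at 1, 486 ± 90.4 at 3, 362 ± 94.6 at 10, 263 ± 72.1 at 30 and 406 ± 98.8 CPM at 62.5 mg/kg/d (SD, n = 4 each). At 1 mg/kg/d its log2 fold change of -1.10 was of the same size as the -1.09 at 30 mg/kg/d, with an adjusted p of 0.377 over that dose's table.

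**Figure D4:**
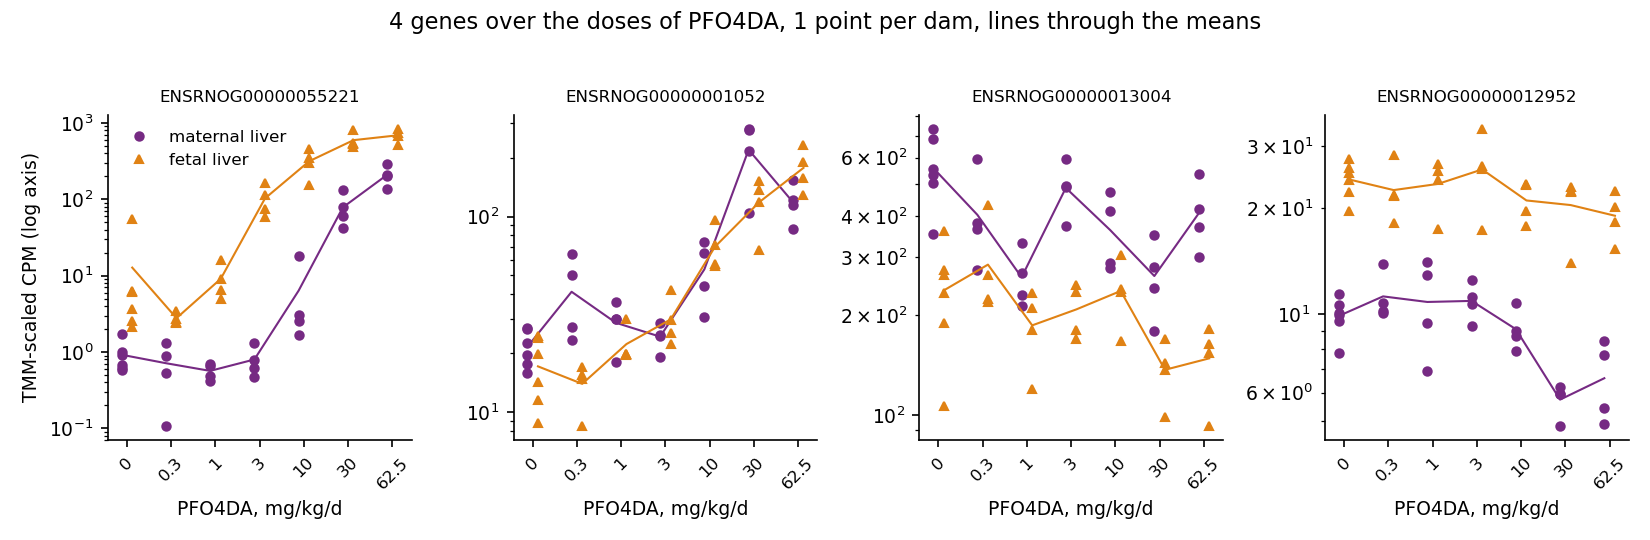
Each point is 1 library in TMM-scaled CPM (log axis) over the doses of PFO4DA, in maternal liver (purple circles) and fetal liver (orange triangles), with lines through the group means; the stages were scaled in separate fits. ENSRNOG00000055221 stays between 0.109 and 1.73 CPM in maternal liver up to 3 mg/kg/d and reaches 136 to 286 CPM at 62.5 mg/kg/d, whereas ENSRNOG00000013004 has a mean of 261 CPM at 1 and 263 CPM at 30 mg/kg/d in maternal liver.

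The fetal livers of the same dams were separate libraries with their own controls, so the 63 genes could be read there independently of the libraries that chose them, although the dams are shared. In fetal liver at 30 mg/kg/d, 61 of the 63 genes were above control, with a median log2 fold change of 1.38, against 48.3% of all genes above control and a median of -0.012. Called higher in both were 47 genes, which is 74.6% of the 63 and 12.8% of the 366 genes called higher in fetal liver (3.28% of 11172 genes tested there); none of the 63 was called lower. The 2 fallen genes were not called in fetal liver. Fetal liver had 719 calls in all (6.44%), 366 higher and 353 lower (3.16%).

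ENSRNOG00000055221 had 481, 814, 553 and 532 CPM in fetal liver of dams 2306, 2307, 2317 and 2318, against 2.13 to 55.9 CPM in the fetal controls, whose median was 4.85 CPM. The fetal control of dam 2293, at 55.9 CPM, stood alone, since the other 5 were at 6.23 CPM or less. Its fetal log2 fold change was 5.54 (SE 0.67, adjusted p = 3.33e-06). In fetal liver ENSRNOG00000001052 had 67.6, 136, 151 and 119 CPM at 30 mg/kg/d, against 8.81 to 24.5 CPM in controls, a log2 fold change of 2.79 (SE 0.26, adjusted p = 1.03e-08). For ENSRNOG00000013004 the fetal log2 fold change was -0.80 (adjusted p = 0.0651) and for ENSRNOG00000012952 it was -0.24 (adjusted p = 0.521).

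Whether the change itself differed between the stages was tested as an interaction within dams. It did for 70 of 11064 genes (0.633%), with the maternal change above the fetal one for 29 genes (0.262%) and below it for 41 (0.371%). This balance turned round with DESeq2 (81 above and 76 below), without a filter on low counts (153 and 125) and without dam 2307 (31 and 26). In the 29 genes the median log2 fold change was -0.06 in maternal liver and -1.57 in fetal liver, and in the 41 it was -0.06 in maternal liver and 1.73 in fetal liver. These were thus mainly genes called in fetal liver (26 of 29 lower and 39 of 41 higher there) with little change in the dams. Of the 63 risen genes, 3 had a smaller change in maternal than in fetal liver and none a larger one. The median difference over the 63 was -0.03, in which the maternal side is the one the genes were chosen on. Read within dams, the difference was -0.04 (95% interval -2.58 to 2.49) for ENSRNOG00000055221, 0.46 (-0.34 to 1.27) for ENSRNOG00000001052, -0.36 (-1.01 to 0.29) for ENSRNOG00000013004 and -0.52 (-0.99 to -0.05, adjusted p = 0.544) for ENSRNOG00000012952, on the log2 scale. For the first gene the separate fits above (6.37 in maternal and 5.54 in fetal liver) give a difference of the other sign, as did the same test without the dam as a block (0.86, 95% interval -1.41 to 3.13), so its direction is not settled. The intervals are wide and do not show that the stages changed alike. The count of 70 was 35 without dam 2317, 44 without control dam 2294, 13 in dams 2293 to 2307 alone and 9 in dams 2308 to 2322 alone, where fewer dams were tested.

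PFO5DoA belongs to the same chemical series as PFO4DA and has a chain longer by a difluoromethoxy unit. At the matched dose of 30 mg/kg/d, maternal livers given PFO5DoA had 4276 calls against their own controls, 42.0% of 10169 genes tested, of which 2063 were higher (20.3%) and 2213 lower (21.8%). Per the labels, the dams given 30 mg/kg/d PFO5DoA weighed less than controls by the last day, and 1 of them had signs of harm to the fetuses; the part of these in the difference was not tested. One pair of compounds was compared, at this 1 dose. The change under PFO5DoA differed from that under PFO4DA for 1704 genes (16.8%), 816 of them (8.02%) with a higher and 888 (8.73%) with a lower change under PFO5DoA. In the 816 genes the median log2 fold change was 1.23 under PFO5DoA and 0.09 under PFO4DA, and in the 888 it was -1.33 under PFO5DoA and -0.06 under PFO4DA. These were thus mainly genes called under PFO5DoA (811 of 816 higher and 879 of 888 lower) with medians near 0 under PFO4DA. All 4 dosed PFO5DoA dams carry numbers in the run 2278 to 2288, split off in the same way where the dose order restarts. That run holds 3 of their 6 controls, while the other 3 are numbered 2263 to 2265. With the run as a covariate there were 3169 calls under PFO5DoA (31.2%) and 1141 for the difference between chemicals, 580 higher and 561 lower. With PFO5DoA dams of that run alone there were 3580 (35.0%) and 1514, 726 higher and 788 lower.

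The PFO5DoA dams share neither animals nor controls with the PFO4DA dams. Of the 63 genes that rose under PFO4DA, 58 were also called higher under PFO5DoA (92.1% of the 63 and 2.8% of the 2063), against a background of 20.3%, and 1 was called lower. Both fallen genes were called lower under PFO5DoA as well, against a background of 21.8%. Over the 63 genes the median log2 fold change was 2.47 under PFO5DoA and 1.27 under PFO4DA in the joint fit. In that joint fit, 38 of the 63 were called higher under PFO4DA. Neither fallen gene was called lower under PFO4DA there (adjusted p = 0.0566 for ENSRNOG00000013004 and 0.14 for ENSRNOG00000012952). By the test of the difference, the change was larger under PFO5DoA for 31 of the 63 genes, against a background of 8.02%. It was smaller for 2, against a background of 8.73%. The PFO4DA side of this difference is the one the genes were chosen on. For the other 30 genes the difference did not pass. With PFO5DoA dams 2278 to 2288 alone, 59 of the 63 were called higher under PFO5DoA, against a background of 17.3%. The change was then larger for 30, against a background of 7.11%, and smaller for 1, against 788 of all 10215 genes.

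ENSRNOG00000055221 had 1080, 1546, 1091 and 957 CPM under 30 mg/kg/d PFO5DoA in dams 2285 to 2288, against 1.00 to 2.25 CPM in the controls of that experiment. Its log2 fold change was 9.37 (SE 0.33) under PFO5DoA and 6.37 (SE 0.31) under PFO4DA in the joint fit, a difference of 3.00 (95% interval 2.13 to 3.87, adjusted p = 9.64e-05). This gene thus rose 8.00-fold more under the longer compound; with PFO5DoA dams 2278 to 2288 alone the difference was 2.79 (SE 0.51, adjusted p = 0.00141). ENSRNOG00000001052 had 132, 208, 199 and 213 CPM under PFO5DoA in the same dams, against 16.4 to 72.6 CPM in its controls, where dam 2264 (72.6 CPM) was the highest and the other 5 were at 25.6 CPM or less. The difference between chemicals was -0.67 (95% interval -1.64 to 0.30, adjusted p = 0.38), which does not show an equal response, and it was -0.19 (SE 0.36) with PFO5DoA dams 2278 to 2288 alone, without dam 2264. For the fallen genes the difference was 0.21 (95% interval -0.47 to 0.89, adjusted p = 0.723) for ENSRNOG00000013004 and -0.71 (-1.29 to -0.13, adjusted p = 0.106) for ENSRNOG00000012952. Under PFO5DoA the last of these had 5.88, 3.35, 1.91 and 2.92 CPM, against 8.95 to 10.6 CPM in controls.

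**Figure D5:**
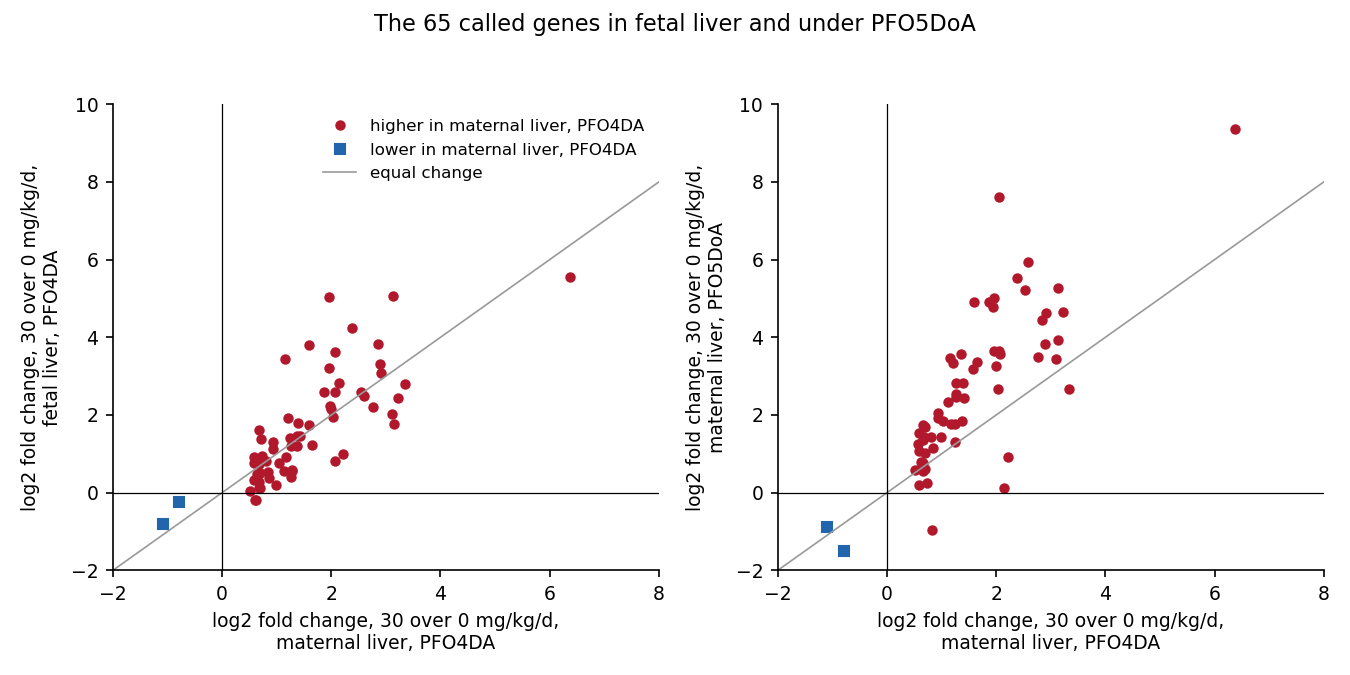
Each point is 1 of the 65 genes called in maternal liver at 30 mg/kg/d PFO4DA: the x axis gives its log2 fold change there and the y axis that in fetal liver under PFO4DA (left) or in maternal liver under 30 mg/kg/d PFO5DoA (right); the grey line marks equal change. On the left 61 of the 63 red points (genes that rose) lie above 0 with a median of 1.38, and on the right 62 of 63 lie above 0 with a median of 2.47.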

How the data were processed

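Liver RNA was measured by TempO-Seq on the panel for the rat transcriptome. The authors deposited 1 table of estimated counts per chemical, not normalized, with 20311 genes in each; 11.8% (PFO4DA) and 12.2% (PFO5DoA) of values had decimals. Per the submitters' processing notes, Partek, STAR 2.7.8a, DESeq2 and the build mRatBN7.2 were used; which tool made which step is not given in the sources used here. All columns were mapped to dams by name, and the stage was set as described above.

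The deposited estimated counts were rounded and tested in edgeR 4.0.16 (R 4.3.3) after filterByExpr by dose group and TMM scaling, with robust estimateDisp and glmQLFit, then glmQLFTest and a Benjamini-Hochberg adjusted p under 0.05. Doses were contrasts of 1 fit over 30 maternal livers. The stage difference was an interaction with dam as a block, and the chemical difference an interaction in a joint fit of both tables. CPM are TMM-scaled within each fit. Each standard error was derived from the test, as the size of the log2 fold change over the square root of the F value. Intervals are 1.96 of these standard errors, so they are approximate, above all where F is near 0. The steps were tested on simulated data.

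With no names, the 2 largest rises and 2 largest falls were followed, among called genes with a mean of at least 5 CPM in either group and every dosed dam either above or below the mean of the controls. The stage rule, gene lists and tests were chosen with earlier results of these data known. Each library of a group is from a separate dam, per the labels. As a check for duplicate deposits only, the 21 pairs of libraries within a group were compared by chi-square (lowest value over its degrees of freedom, 24.6), and none was taken as a duplicate. Alternatives were DESeq2 1.42.0, RLE scaling, no filter, only the groups compared, the run, a replicate block, a minimum fold of 2, no dam block, stage by Spearman's rho and leaving out each dam; the run in the other comparisons was added after seeing the data.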

Additional observations from a re-analysis of the deposited data

Results flagged for a closer look

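The change at 30 mg/kg/d PFO4DA differed between maternal and fetal liver for 70 genes by the test of the difference, and that at 30 mg/kg/d in maternal liver differed between PFO5DoA and PFO4DA for 1704 genes. ENSRNOG00000055221 was among the second group, with a log2 change 3.00 larger under PFO5DoA.

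Single livers stood apart from their group in 7 of 46 sets of values examined, each set being 1 measure (1 of 4 genes, or the share of counts) in 1 group of 4 to 6 dams. Chance gives about 1 in 20 where values spread normally, which was not checked for these CPM. The sets are also not independent, since the same livers recur across genes. For ENSRNOG00000055221 these were the fetal control of dam 2293 with 55.9 CPM, the maternal control of dam 2310 with 1.73 CPM and the 10 mg/kg/d maternal liver of dam 2304 with 18.2 CPM. For ENSRNOG00000001052 they were the lowest of 4 maternal livers at 30 mg/kg/d PFO5DoA (dam 2285, 132 CPM) and the highest of its 6 controls (dam 2264, 72.6 CPM). For ENSRNOG00000012952 they were the fetal liver of dam 2307 at 30 mg/kg/d PFO4DA with 14.0 CPM, the lowest of 4, and the maternal liver of dam 2297 at 0.3 mg/kg/d with 13.9 CPM, the highest of 4. None was a maternal liver at 30 mg/kg/d PFO4DA.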

How the results depend on the processing

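The 65 calls at 30 against 0 mg/kg/d, of 10263 genes tested, became 104 with DESeq2 (95 higher, 9 lower), of 19586 given a p-value. DESeq2 was run without the filter on low counts, and it called 62 of the 63 risen and both fallen genes. The calls were 42 with a minimum fold of 2 and 51 to 61 without 1 dam. With only the 30 and 0 mg/kg/d livers in the fit there were 69 calls, 50 of the 63 risen genes among them. Dams with the same label number had a correlation of deviations of -0.0404 to 0.153 for numbers 1 to 4. Differently numbered dams were not compared, so these values cannot decide whether the numbers pair the dams. With the numbers as a replicate block there were 37 calls, and 815 in place of 1704 for the difference between chemicals. Without 1 dam that difference gave 1144 to 1860 calls. DESeq2, again without that filter, gave 73 calls for 62.5 against 30 mg/kg/d and 26 for 30 against 10, of 19586 genes. It gave 157 for the difference between stages, of 19228 genes against 11064 in the main test. In edgeR without a filter on low counts there were 9 for 62.5 against 30 and 278 between stages, where more genes were tested. Without 1 dam these comparisons gave 0 to 145, 5 to 9 and 35 to 63 calls. Chosen after seeing the data, the run as a covariate gave 2 calls for 62.5 against 30 mg/kg/d, and the runs alone 13 and 9 between stages; for the difference between chemicals the run as a covariate gave 1141. The rises of ENSRNOG00000055221 and ENSRNOG00000001052 kept their calls under every alternative run; the falls did not, with ENSRNOG00000013004 at an adjusted p of 0.146 under the block and ENSRNOG00000012952 at 0.258 there and 0.0662 without the filter. Under these alternatives none of the 4 genes reversed its direction at 30 against 0 mg/kg/d. Spearman's rho gave every PFO4DA library the same stage; setting the stage by Afp was not run, since no identifier had a name. The causes of these shifts were not tested. Depth limits genes such as ENSRNOG00000055221, with 5 to 17 counts per control.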
